A study of Mus musculus with 62 samples.

Results

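The brain makes its own cholesterol, because cholesterol carried in blood lipoproteins hardly crosses the blood-brain barrier. The 28 genes described here are 20 enzymes of that synthesis, 5 genes of the SREBP machinery that controls it, and 3 genes of sterol transport, storage and efflux. They were picked by gene symbol out of the 56415 genes of the count table, and all 28 passed the low-count filter in every comparison.

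Poly(A) RNA was sequenced from 62 tissue samples of 16 male C57BL/6J mice, 8 to 10 weeks old, with no other genetic change. Each mouse was injected intraperitoneally with saline or with ethanol at 2 g/kg, either once on 1 day (acute) or daily over 10 days (chronic), and tissue was taken 4 h after the last injection. Punches of frozen slices came from the cortex (CTX), the dorsal and ventral parts of the hippocampus (dHPC, vHPC) and the dorsal and ventral parts of the striatum (DS, VS), in 20 groups of 3 or 4 mice. The mice within a group are different animals, but a mouse gave several regions, so different regions are not independent animals.

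In the mevalonate arm, Acat2 and Hmgcs1 start from acetyl-CoA, Mvk, Pmvk and Mvd convert mevalonate, and Idi1, Fdps and Ggps1 make the isoprenoid diphosphates. In the squalene and sterol arm, Fdft1 makes squalene, Sqle and Lss turn it into lanosterol, and Cyp51, Tm7sf2, Lbr, Msmo1, Nsdhl, Hsd17b7, Ebp, Sc5d and Dhcr7 carry lanosterol on towards cholesterol. The transcription factors SREBP-1 (Srebf1) and SREBP-2 (Srebf2) sit in the endoplasmic reticulum, bound to the sterol-sensing escort Scap and held there by Insig1 and Insig2. When membrane sterol is low, the factors travel to the Golgi, are cut free and switch the genes of the pathway on together. Stard4 carries sterol between membranes, Soat1 esterifies it for storage and Abca1 exports it.

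The sequences shown are the promoters of the genes that passed a test of ethanol, or of its difference between regions, and that have an entry in the RefSeq promoter table (mouse build GRCm38.p6, 250 bases before to 50 bases after a transcription start). Of the 28 genes 24 have an entry there, with 32 windows in all, and Fdft1, Fdps, Sqle and Stard4 were not matched. Capitals mark the SREBP-binding letters TCACNCCA and TCACNTCA and the CCAAT box of the partner factor NF-Y, searched on both strands with overlapping matches counted, so that a CCAAT box on the other strand reads ATTGG. The windows are chr13:119690101-119690400 (plus strand) for Hmgcs1, chr13:8885356-8885655 (plus strand) for Idi1, chr8:64733529-64733828 (minus strand) for Msmo1, chr5:4104648-4104947 (minus strand) for Cyp51, chrX:72918271-72918570 (plus strand) for Nsdhl and chr5:28071162-28071461 (plus strand) for Insig1, each printed 5′ to 3′ along its gene.
Hmgcs1: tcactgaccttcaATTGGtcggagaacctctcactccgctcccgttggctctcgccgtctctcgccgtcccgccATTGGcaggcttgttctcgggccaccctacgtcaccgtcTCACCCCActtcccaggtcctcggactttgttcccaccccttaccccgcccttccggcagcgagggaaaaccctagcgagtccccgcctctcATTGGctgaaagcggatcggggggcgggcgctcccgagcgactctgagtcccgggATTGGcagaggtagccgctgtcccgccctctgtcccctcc
Idi1: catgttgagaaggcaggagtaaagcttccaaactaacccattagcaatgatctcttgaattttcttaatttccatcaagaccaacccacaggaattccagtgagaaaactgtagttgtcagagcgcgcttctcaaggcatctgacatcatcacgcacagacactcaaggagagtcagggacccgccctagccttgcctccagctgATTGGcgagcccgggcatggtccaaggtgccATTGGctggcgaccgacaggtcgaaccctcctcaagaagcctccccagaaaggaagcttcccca
Msmo1: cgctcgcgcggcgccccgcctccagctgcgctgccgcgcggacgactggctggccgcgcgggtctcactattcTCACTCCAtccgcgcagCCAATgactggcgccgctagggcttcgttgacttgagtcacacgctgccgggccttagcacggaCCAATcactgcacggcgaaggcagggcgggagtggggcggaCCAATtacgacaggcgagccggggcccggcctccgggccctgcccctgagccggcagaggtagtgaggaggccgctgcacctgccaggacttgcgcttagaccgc
Cyp51: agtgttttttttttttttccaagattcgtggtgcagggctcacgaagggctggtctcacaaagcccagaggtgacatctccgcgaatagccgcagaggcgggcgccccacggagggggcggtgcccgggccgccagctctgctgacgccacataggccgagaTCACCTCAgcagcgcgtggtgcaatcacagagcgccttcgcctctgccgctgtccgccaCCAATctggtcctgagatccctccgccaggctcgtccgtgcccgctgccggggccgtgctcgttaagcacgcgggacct
Nsdhl: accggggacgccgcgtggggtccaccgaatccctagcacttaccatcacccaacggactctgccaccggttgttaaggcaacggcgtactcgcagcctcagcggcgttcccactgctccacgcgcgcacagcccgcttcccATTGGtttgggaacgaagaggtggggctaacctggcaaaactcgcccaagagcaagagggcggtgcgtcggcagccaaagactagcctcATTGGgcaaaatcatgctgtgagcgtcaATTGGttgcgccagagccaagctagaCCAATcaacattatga
Insig1: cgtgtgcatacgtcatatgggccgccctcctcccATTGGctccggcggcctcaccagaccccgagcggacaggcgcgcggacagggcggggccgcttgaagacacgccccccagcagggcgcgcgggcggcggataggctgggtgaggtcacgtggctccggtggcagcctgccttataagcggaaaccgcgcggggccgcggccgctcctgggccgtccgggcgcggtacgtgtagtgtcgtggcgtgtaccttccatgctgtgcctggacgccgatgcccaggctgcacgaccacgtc
TCACNCCA was found in 3 of the 32 windows (Hmgcs1, Msmo1 and Srebf2), against 4.36% of all 32851 windows of that length. TCACNTCA was found in 6 of 32, against 3.47%, and CCAAT in 22 of 32, against 37.4%. A match is a run of letters and not a measured binding site, and a window without one says nothing about the factor.

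Levels were compared between genes in the saline libraries, acute and chronic together, as TPM, a unit corrected for gene length and library size. Hmgcs1, the HMG-CoA synthase, had the highest level in all 5 regions, with a median of 165 TPM in vHPC, 131 in CTX, 122 in dHPC, 105 in VS and 96.2 in DS. Srebf2 came next in each region, with medians of 65.4 to 88.5 TPM. Insig1 had medians of 44.3 to 58.9 TPM and Fdft1 of 38.6 to 52.7 TPM. At the low end stood Lbr, which also anchors the nuclear lamina, with 5.18 to 7.92 TPM, Soat1, with 5.51 to 8.69 TPM, and Lss, with 7.54 to 8.65 TPM. The length used is the exonic length of the gene, 9791 bases for Soat1 and 10787 for Lss. A long one lowers the TPM, so these ranks depend on the annotation.

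Between vHPC and DS, which share a library kit, the median level was higher in vHPC for 27 of the 28 genes, and for 13 of them every saline vHPC library lay above every saline DS library. Of all 20669 genes that passed the filter there, 67.5% had the higher median in vHPC and 23.3% lay wholly above. Dhcr7, which reduces the last sterol intermediate, differed most, with 13.8 to 17.0 TPM in vHPC (n = 6) and 6.08 to 9.81 TPM in DS (n = 5), a ratio of medians of 1.99. The ratio was 1.82 for Mvd, 1.77 for Sqle and 1.71 for Hmgcs1. Msmo1 went the other way, with 22.6 to 31.4 TPM in vHPC and 26.6 to 29.3 TPM in DS, ranges that overlapped. The CTX and dHPC libraries were made with another kit and run on another platform, so for levels that batch and the region cannot be told apart.

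**Figure D1:**
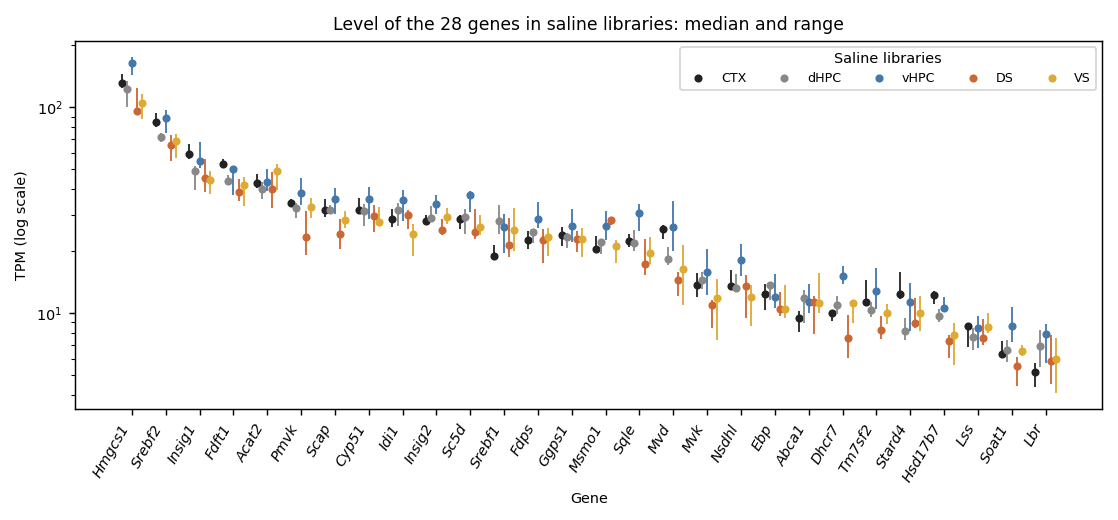
Level of each gene in the saline libraries of each region (TPM, log scale; point, median; line, lowest to highest library; 5 libraries in DS and 6 in each other region). Hmgcs1 is highest in all 5 regions, and the vHPC median exceeds the DS median for 27 of 28 genes, where it does so for 67.5% of all genes.

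The effect of ethanol was tested within each region and paradigm with edgeR's quasi-likelihood F test over all genes that passed the filter, and a gene was called at a Benjamini-Hochberg false discovery rate (FDR) below 0.1, the threshold of the study. Values of single libraries are TMM-scaled CPM, in order of replicate number. DESeq2, the tool of the study, was run as an alternative, and "called" without a tool means by edgeR. One chronic saline DS library (replicate 2) lacks all counts from 6 chromosomes (7, 8, 9, X, Y and MT) and part of chromosome 6, and reads 0 for 7 of the 28 genes. It was left out of the DS chronic tests, and values with it are given beside them.

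**Figure D2:**
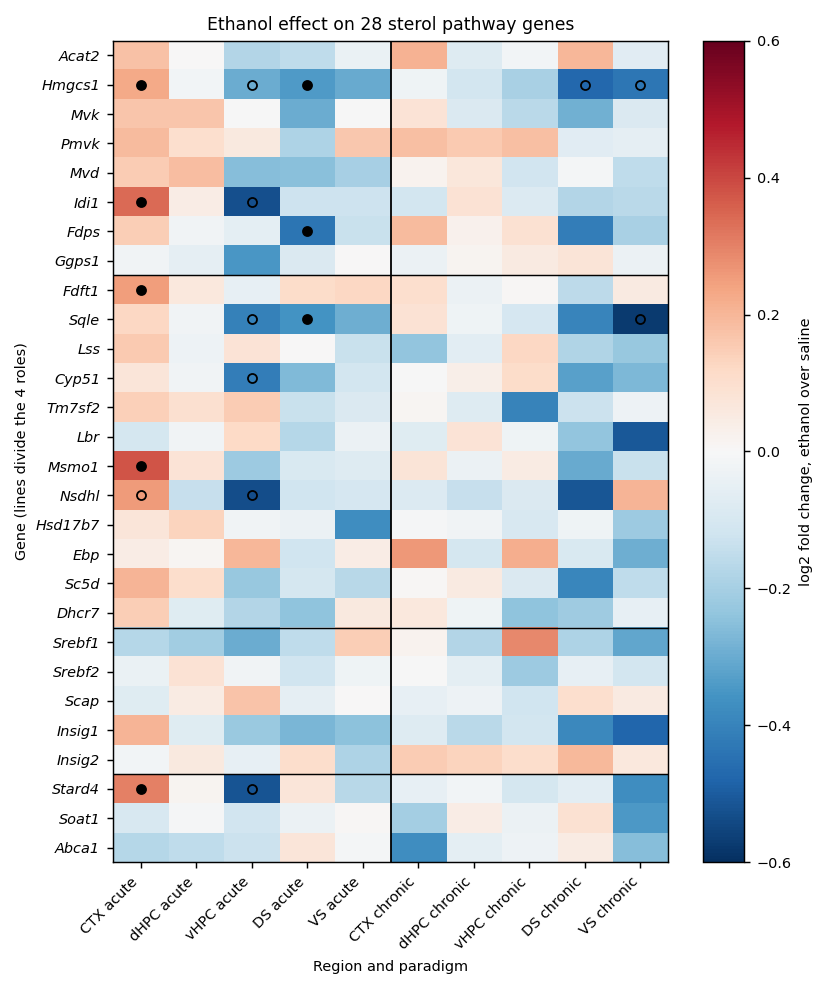
Log2 fold change of ethanol over saline (color) for the 28 genes (vertical axis, in the 4 roles) in the 10 comparisons (horizontal axis). A filled circle marks an edgeR FDR below 0.1 and an open circle a DESeq2 FDR below 0.1 alone. CTX acute holds 5 filled circles, all on positive values, and DS acute 3, all on negative values.

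In the cortex, acute ethanol raised 5 of the 28 genes and lowered none. Over all 25905 genes tested, 0.818% were called higher and 1.17% lower. The 5 genes were Msmo1, a sterol methyl oxidase, Idi1, the isopentenyl diphosphate isomerase, Hmgcs1, Stard4 and Fdft1. A positive log2 fold change was found for 7 of 8 genes of the mevalonate arm and 11 of 12 of the squalene and sterol arm, and for 1 of the 5 SREBP machinery genes. The median over the 28 genes was 0.15 on the log2 scale, and over all genes tested it was 0.00.

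Msmo1 read 46.9, 45.7 and 54.5 CPM with saline and 59.9, 65.4 and 65.7 CPM with ethanol (log2 fold change 0.38 ± 0.07 SE, edgeR FDR 0.034). Idi1 read 37.6, 34.1 and 41.2 CPM with saline and 47.0, 48.1 and 47.7 CPM with ethanol (log2 fold change 0.34 ± 0.07 SE, edgeR FDR 0.0493). For both enzymes, each of the 3 ethanol libraries stood above each of the 3 saline libraries. Hmgcs1 read 229, 211 and 223 CPM with saline and 262, 261 and 253 CPM with ethanol (log2 fold change 0.23 ± 0.05 SE, edgeR FDR 0.0496). Stard4 read 25.5, 24.2 and 25.6 CPM with saline and 32.2, 28.9 and 31.7 CPM with ethanol (log2 fold change 0.30 ± 0.07 SE, edgeR FDR 0.0683). Fdft1 read 78.0, 77.6 and 80.1 CPM with saline and 89.6, 89.1 and 102 CPM with ethanol (log2 fold change 0.25 ± 0.06 SE, edgeR FDR 0.081). These 3 genes did not overlap between the groups either, and their estimates were smaller than that of Msmo1.

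DESeq2 called the same 5 genes and Nsdhl, a sterol dehydrogenase, where it called 1.48% of all genes higher and 2.21% lower. Nsdhl read 14.5, 14.2 and 14.1 CPM with saline and 16.6, 17.4 and 17.0 CPM with ethanol (edgeR FDR 0.151, DESeq2 FDR 0.0908). Every ethanol library lay above every saline library for 14 of the 28 genes and below for 2, Lbr and Srebf1, where 8.85% and 8.79% of all genes did so. At an unadjusted p below 0.05, 12 genes were higher and 1 lower (12.5% of all genes in either direction). Sqle, the squalene epoxidase, was among them at 44.1 to 46.8 CPM with saline and 49.1 to 50.1 CPM with ethanol (edgeR FDR 0.396), as was Insig1, itself a target of SREBP, at 64.8 to 70.4 CPM with saline and 69.6 to 86.0 CPM with ethanol (edgeR FDR 0.256). Sqle did not overlap between the groups, while Insig1 did.

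One fit of all 4 cortex groups, acute and chronic, called 0 of the 28 genes, and the 5 genes had an edgeR FDR of 0.42 to 0.625 in it. Leaving out cortex saline replicate 2, 4 or 6 gave 1 (Hmgcs1), 0 or 2 (Msmo1 and Idi1) called genes, leaving out ethanol replicate 4 or 5 gave 0 each, and leaving out ethanol replicate 2 gave 5, with Insig1 in place of Stard4. Without the share of all genes called in these fits, whether other genes lost their calls too cannot be seen. Markers of other cell types moved along with treatment, and the sums of 7 of the 10 lists did not overlap between the groups. The 10 oligodendrocyte markers summed to 1146 to 1298 CPM with saline and 1392 to 1911 CPM with ethanol, with all 10 higher and 5 called. The 7 endothelial markers, all lower, summed to 186 to 196 CPM with saline and 161 to 169 CPM with ethanol, and the 7 fibroblast markers, all lower, to 82.6 to 96.1 CPM with saline and 58.3 to 67.0 CPM with ethanol. The 9 markers of pallial excitatory neurons, cells of cortex and hippocampus, summed to 3475 to 3659 CPM with saline and 3252 to 3451 CPM with ethanol. Of these 9 markers 6 were lower and 3 higher, with 3 called. The 9 striatal projection neuron markers, 8 of them lower and 3 called, summed to 312 to 378 CPM with saline and 275 to 298 CPM with ethanol. The microglia markers summed to 224 to 243 CPM with saline and 218 to 222 CPM with ethanol, with 8 of 9 lower. The dentate granule neuron markers summed to 142 to 168 CPM with saline and 134 to 135 CPM with ethanol. Of these 6 markers 4 were higher and 2 lower, with 1 called, so most did not share the lower sum. Such a sum does not show that granule neurons were in the cortex punches. No marker was at 0. The part of these cells in the higher sterol genes was not tested, and in bulk tissue fewer cells of a type and less RNA per cell cannot be told apart.

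In the DS, acute ethanol lowered 3 of the 28 genes and raised none, where 3.1% of all 20495 genes tested were called lower and 2.05% higher. They were Fdps, the farnesyl diphosphate synthase, Hmgcs1 and Sqle, and DESeq2 called the same 3 (3.7% of all genes lower, 2.7% higher). All 8 genes of the mevalonate arm and 10 of 12 of the squalene and sterol arm had a negative log2 fold change, and the median over the 28 genes was -0.12, against 0.00 over all genes.

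Fdps read 38.1, 40.7 and 32.5 CPM with saline and 25.9, 28.4 and 27.6 CPM with ethanol (log2 fold change -0.44 ± 0.10 SE, edgeR FDR 0.0356). Hmgcs1 read 226, 187 and 195 CPM with saline and 147, 178 and 156 CPM with ethanol (log2 fold change -0.34 ± 0.09 SE, edgeR FDR 0.0529). Sqle read 41.9, 36.5 and 42.5 CPM with saline and 31.1, 33.7 and 29.7 CPM with ethanol (log2 fold change -0.36 ± 0.10 SE, edgeR FDR 0.0645). In each of the 3 genes the highest ethanol library stood below the lowest saline library. The mean of Fdps changed by -26.3%, that of Hmgcs1 by -20.9% and that of Sqle by -21.8%.

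With Mvk, Tm7sf2, Srebf1 and Insig1, 7 genes had every DS ethanol library below every saline library and 0 had every one above, where 10.9% and 10.6% of all genes did so. At an unadjusted p below 0.05, 5 genes were lower and 0 higher (15.5% of all genes in either direction). Insig1 read 56.1 to 61.7 CPM with saline and 43.1 to 55.8 CPM with ethanol (edgeR FDR 0.176). Srebf2 read 199.9 to 209 CPM with saline and 172 to 205 CPM with ethanol, with overlap (edgeR FDR 0.475).

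One fit of all 4 DS groups called 0 of the 28 genes, and the 3 genes had an edgeR FDR of 0.108 to 0.189 in it. Without DS saline replicate 2 or ethanol replicate 3 the count of called genes was 0 and 0, without saline replicate 6 or ethanol replicate 5 it was 1 (Fdps) and 1 (Insig1), and without saline replicate 4 or ethanol replicate 4 it was 3 (Cyp51 in place of Fdps) and 3 (the same genes). Here too the share of all genes called in these fits is not given. DS ethanol replicate 5 held 46564992 counts in total, against 9689502 to 15342254 in the other DS acute libraries. Marker sums of the DS punches also differed between the groups. The 9 markers of pallial excitatory neurons summed to 1363 to 1537 CPM with saline and 744 to 932 CPM with ethanol, with all 9 called lower. Their median log2 fold change was -3.2, so most of them fell further than the sum. The 9 markers of striatal projection neurons summed to 5956 to 7145 CPM with saline and 7869 to 8126 CPM with ethanol, with 7 called, and the oligodendrocyte markers to 5287 to 6072 CPM with saline and 4834 to 5579 CPM with ethanol, with overlap. The 10 choroid plexus markers, all higher and 3 called, summed to 27.6 to 35.9 CPM with saline and 41.4 to 154 CPM with ethanol, without overlap. No marker was at 0, and the part of these cells in the lower sterol genes was not tested.

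In the vHPC, edgeR called 0 of the 28 genes after acute ethanol, and none of all 19916 genes (0% higher, 0% lower). At an unadjusted p below 0.05, 9 of the 28 genes were lower and 0 higher, where 11.9% of all genes passed in either direction. DESeq2 called 6 lower and 0 higher, against 1.23% and 1.68% of all genes. They were Cyp51, the lanosterol demethylase, Idi1, Nsdhl, Sqle, Stard4 and Hmgcs1.

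Cyp51 read 65.0, 62.2 and 62.3 CPM with saline and 47.2, 49.1 and 46.0 CPM with ethanol (log2 fold change -0.41 ± 0.08 SE, edgeR FDR 0.191), and its DESeq2 FDR of 0.00932 was the second lowest among the 28 genes. Idi1 read 49.4, 47.9 and 44.6 CPM with saline and 28.9, 35.3 and 34.3 CPM with ethanol (log2 fold change -0.53 ± 0.11 SE, edgeR FDR 0.207), with the lowest DESeq2 FDR, 0.00821. Nsdhl read 18.9, 21.4 and 18.3 CPM with saline and 13.1, 12.8 and 14.6 CPM with ethanol (log2 fold change -0.53 ± 0.13 SE, edgeR FDR 0.217), with a DESeq2 FDR of 0.0536. The mean of Cyp51 changed by -24.9%, that of Idi1 by -30.5% and that of Nsdhl by -30.9%, and none of the 3 overlapped between the groups.

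Sqle read 57.8, 63.2 and 65.8 CPM with saline and 46.9, 48.7 and 45.4 CPM with ethanol (log2 fold change -0.41 ± 0.09 SE, edgeR FDR 0.207), with a DESeq2 FDR of 0.021. Stard4 read 23.5, 27.0 and 22.6 CPM with saline and 19.2, 15.8 and 16.0 CPM with ethanol (log2 fold change -0.52 ± 0.13 SE, edgeR FDR 0.231), with a DESeq2 FDR of 0.0602. Hmgcs1 read 279, 275 and 269.8 CPM with saline and 203, 244 and 225 CPM with ethanol (log2 fold change -0.30 ± 0.09 SE, edgeR FDR 0.284), with a DESeq2 FDR of 0.078. With Ggps1, Sc5d and Dhcr7, 9 genes had every ethanol library below every saline library, and 1, Tm7sf2, had every one above, where 8.8% and 9.2% of all genes did so.

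The vHPC punches varied in their marker sums. Saline replicate 2 held 689 CPM of the 6 thalamic neuron markers, and the other 5 libraries 64.0 to 206 CPM. Ethanol replicate 4 held 1214 CPM of the striatal projection neuron markers, and the other 5 libraries 208 to 446 CPM. The oligodendrocyte markers summed to 1500 to 5921 CPM with saline and 2013 to 5308 CPM with ethanol, with overlap, and the 6 dentate granule neuron markers to 192 to 388 CPM with saline and 486 to 680.5 CPM with ethanol, without overlap. Without saline replicate 6, edgeR called 2 of the 28 genes, Idi1 and Cyp51, and without any other single library it called 0. For these fits the share of all genes called is not given here. The part of these cell types in the lower sterol genes was not tested.

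In the dHPC and the VS, neither tool called any of the 28 genes after acute ethanol. Of all 26215 genes in the dHPC, edgeR called 0.0267% higher and 0.0153% lower and DESeq2 0.538% and 0.534%, and 7.88% had an unadjusted p below 0.05, as did 1 of the 28 genes. That gene was Srebf1, which read 56.0, 71.9 and 64.9 CPM with saline and 56.9, 54.8, 53.0 and 57.8 CPM with ethanol, with overlap (log2 fold change -0.21 ± 0.08 SE, n = 3 and 4, edgeR FDR 0.558). Log2 fold changes of the 28 genes ran from -0.21 to 0.19, and 2 genes, Mvk and Hsd17b7, had every ethanol library above every saline library and 0 had every one below (3.74% and 4.42% of all genes).

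In the VS, 20 of 28 genes had a negative log2 fold change, with a median of -0.08, and 2, Hmgcs1 and Hsd17b7, had an unadjusted p below 0.05 (7.32% of all 20032 genes). Of all genes, edgeR called 0% higher and 0.0399% lower and DESeq2 0.135% and 0.754%. Hmgcs1 read 188, 198 and 204 CPM with saline and 154, 146 and 178 CPM with ethanol (log2 fold change -0.30 ± 0.10 SE, edgeR FDR 0.534). Hmgcs1, Idi1, Hsd17b7 and Insig2 had every ethanol library below every saline library and 0 genes had every one above, where 6.61% and 5.9% of all genes did so. The pallial excitatory neuron markers summed to 786 to 1213 CPM with saline and 377 to 565 CPM with ethanol, the astrocyte markers to 1397 to 1467 CPM with saline and 1472 to 1755 CPM with ethanol and the dentate granule neuron markers to 259 to 342 CPM with saline and 367 to 402 CPM with ethanol, none with overlap. All 9 pallial markers were lower, at a median log2 fold change of -2.76, with 1 called. The 5 dentate granule neuron markers tested were all higher, with 0 called. Their sum does not show that such neurons were in the VS punches. The part of the cells named by these lists was not tested.

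**Figure D3:**
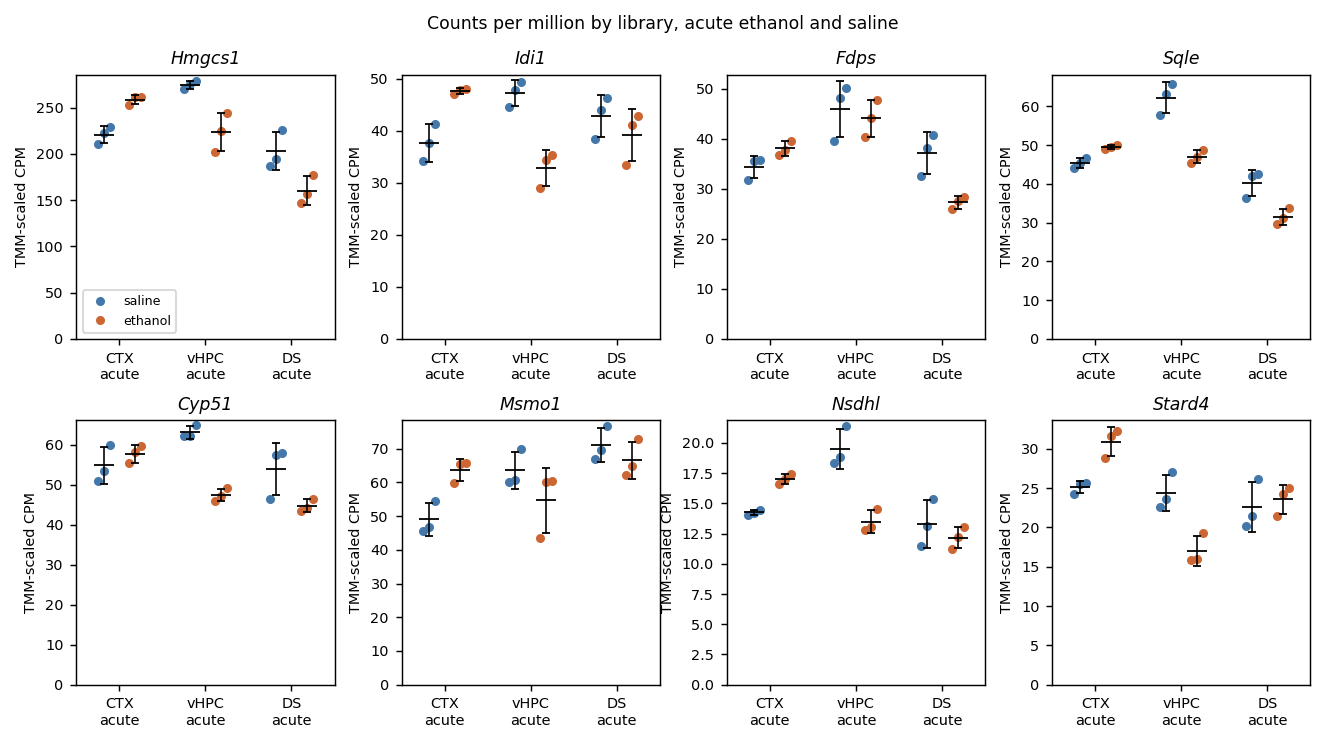
TMM-scaled CPM (vertical axes, from 0) of 8 genes in each library of the CTX, vHPC and DS acute comparisons (dots, libraries; bars, mean and SD; n = 3 saline and 3 ethanol). The ethanol libraries of Hmgcs1 lie above the saline libraries in CTX and below them in vHPC and DS.

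Whether acute ethanol acted differently between regions was tested as the log2 fold change in a region minus that in the cortex, in tests added after the single regions had been seen. The tests share the cortex libraries, and most mice gave both regions. In the vHPC, 6 of the 28 genes had a lower effect than in the cortex and 0 a higher one, where 0.272% of all 26076 genes had a lower one. They were Idi1 (-0.86 ± 0.13 SE, edgeR FDR 0.039), Stard4 (-0.81 ± 0.14 SE, edgeR FDR 0.0453), Nsdhl (-0.78 ± 0.14 SE, edgeR FDR 0.0453), Sqle (-0.53 ± 0.10 SE, edgeR FDR 0.0498), Hmgcs1 (-0.52 ± 0.10 SE, edgeR FDR 0.0498) and Cyp51 (-0.48 ± 0.10 SE, edgeR FDR 0.0834). The median difference was -0.25 over the 28 genes and -0.01 over all genes.

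In the DS, 5 genes had a lower effect than in the cortex and 0 a higher one, where 2.31% of all 26260 genes had a lower one. They were Fdps (-0.57 ± 0.12 SE, edgeR FDR 0.018), Hmgcs1 (-0.55 ± 0.10 SE, edgeR FDR 0.00679), Sqle (-0.46 ± 0.11 SE, edgeR FDR 0.0247), Insig1 (-0.45 ± 0.13 SE, edgeR FDR 0.0916) and Msmo1 (-0.45 ± 0.12 SE, edgeR FDR 0.0561). The VS gave 1 gene, Hmgcs1 (-0.52 ± 0.11 SE, edgeR FDR 0.0911), where 0.329% of all 26115 genes had a lower effect. The dHPC gave 0, with 0% of all 27231 genes lower by edgeR and 0.246% by DESeq2. Srebf1, Srebf2, Scap and Insig2 differed from the cortex by -0.16 to 0.32 over the 4 regions, and none was called.

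DESeq2 called 11 genes in the vHPC, 8 in the DS and 3 in the VS, where 2.48%, 3.42% and 1.1% of all genes were lower. With the mouse as a block, the same 5 genes were called in the DS (1.64% of all genes lower), while 0 were called in the vHPC and 0 in the VS (0% and 0% of all genes) and 0 in the dHPC (0.103%). Under the block Idi1 in the vHPC differed by -0.79 (edgeR FDR 0.277) and Hmgcs1 in the VS by -0.46 (edgeR FDR 0.729).

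Hmgcs1, Fdps and Sqle were called for the DS in all 12 fits that left out 1 library each. They were the only 3 called without cortex saline replicate 2 or 4, cortex ethanol replicate 4 or 5, DS saline replicate 6 or DS ethanol replicate 3. For the vHPC, 0 genes were called without cortex saline replicate 4 or cortex ethanol replicate 2, 4 or 5, 1 without cortex saline replicate 6, 2 without cortex saline replicate 2 or vHPC ethanol replicate 3 or 5, and 5 to 9 without each of the others. For the VS, 1 gene was called without VS saline replicate 2 or VS ethanol replicate 2, 3 without VS ethanol replicate 5 and 0 without each of the other 9 libraries. These counts stand without the share of all genes called in the same fits. Kit and platform also separate the cortex from the vHPC, DS and VS, and in these differences they cannot be told apart from the region.

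**Figure D4:**
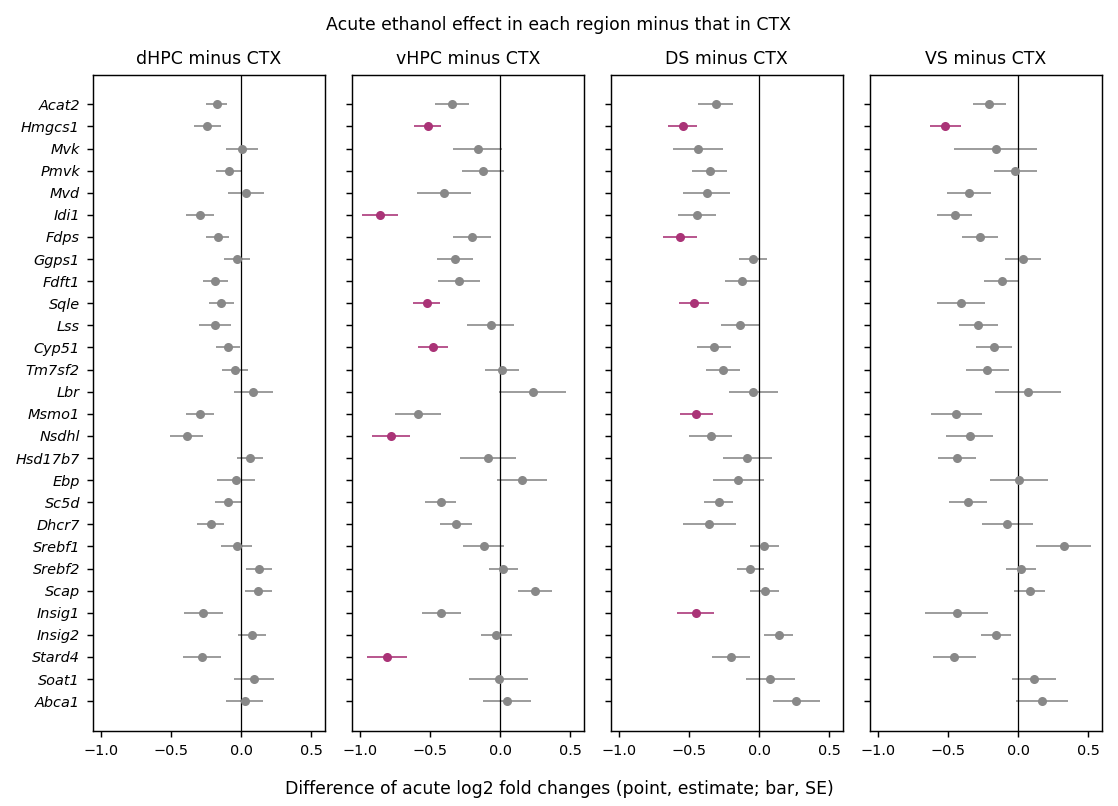
Acute log2 fold change in each region minus that in the cortex (horizontal axes, log2 scale; bars, SE) for the 28 genes, with an edgeR FDR below 0.1 in purple. All 12 purple points lie below 0, with 6 in the vHPC, 5 in the DS and 1 in the VS.

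After chronic ethanol, edgeR called 0 of the 28 genes in each of the 5 regions, and over all genes it called 0.0555% higher and 0% lower in the vHPC and 0% in either direction in each of the others. DESeq2 called Hmgcs1 lower in the DS (0.499% of all 19844 genes lower, 0.277% higher) and Hmgcs1 and Sqle lower in the VS (1.01% of all 20331 genes lower, 0.777% higher). It called none of the 28 in the CTX (0.109% of all genes higher, 0.499% lower), the dHPC (0.428% and 0.431%) and the vHPC (0.702% and 0.379%).

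In the DS, Hmgcs1 read 225 and 199 CPM with saline and 161, 144, 149 and 158 CPM with ethanol (log2 fold change -0.47 ± 0.09 SE, edgeR FDR 0.342), n = 2 and 4, with a DESeq2 FDR of 0.00993. Its mean changed by -27.9% and its groups did not overlap. All 12 genes of the squalene and sterol arm had a negative log2 fold change, as did 22 of the 28, with a median of -0.17 against 0.00 over all genes. At an unadjusted p below 0.05, 8 genes were lower and 0 higher (7.53% of all genes in either direction). Nsdhl had the lowest estimate, at 17.2 and 19.3 CPM with saline and 13.2, 14.4, 10.9 and 12.7 CPM with ethanol (log2 fold change -0.51 ± 0.16 SE, edgeR FDR 0.521), and Fdps, Sqle, Sc5d, Insig1, Cyp51 and Msmo1 lay between -0.42 and -0.30. Every ethanol library lay below every saline library for 11 genes and above for 2, where 8.64% and 8.75% of all genes did so.

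With the incomplete saline library, on the chromosomes it covers, Hmgcs1 had a log2 fold change of -0.42 ± 0.09 SE (edgeR FDR 0.248). The median over the 21 genes on those chromosomes was -0.03 with the library and -0.16 without it, and 11 of the 21 were negative with it. The pallial excitatory neuron markers summed to 1139 to 1329 CPM with saline and 532 to 999 CPM with ethanol and the oligodendrocyte markers to 6227 to 6307 CPM with saline and 4216 to 5932 CPM with ethanol, neither with overlap. All 9 pallial markers were lower, at a median log2 fold change of -2.44, with 0 called. The choroid plexus markers summed to 302 to 992 CPM with saline and 23.3 to 474 CPM with ethanol, with overlap. The endothelial markers summed to 155 to 187 CPM with saline and 199 to 209.7 CPM with ethanol. The microglia markers summed to 304 to 324 CPM with saline and 325 to 349 CPM with ethanol. The dentate granule neuron markers summed to 229.9 to 276 CPM with saline and 309 to 433 CPM with ethanol. These sums lay wholly above with ethanol. A sum of dentate granule neuron markers does not show that such neurons were in the DS punches. All 7 endothelial markers were higher, as were 6 of 9 microglia markers and 3 of 6 dentate granule neuron markers. The others were lower, and 0 were called. The part of these cells was not tested.

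In the VS, Sqle read 52.4, 38.9 and 46.3 CPM with saline and 32.3, 31.0 and 29.3 CPM with ethanol (log2 fold change -0.57 ± 0.12 SE, edgeR FDR 0.238), n = 3 and 3, with a DESeq2 FDR of 0.0158. Hmgcs1 read 215, 164 and 196 CPM with saline and 149, 132 and 145 CPM with ethanol (log2 fold change -0.43 ± 0.11 SE, edgeR FDR 0.305), with a DESeq2 FDR of 0.0388. Neither gene overlapped between the groups, and the mean of Sqle changed by -32.7%. A negative log2 fold change was found for 24 of 28 genes, with a median of -0.16 against -0.01 over all genes, and 8 had an unadjusted p below 0.05, all lower (9.95% of all genes in either direction). Every ethanol library lay below every saline library for 10 genes and above for 0, where 7.79% and 8.33% of all genes did so.

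Insig1 read 55.2 to 61.6 CPM with saline and 33.2 to 49.0 CPM with ethanol in the VS (log2 fold change -0.47 ± 0.14 SE, edgeR FDR 0.337, DESeq2 FDR 0.104). Srebf1 read 59.6 to 74.4 CPM with saline and 51.2 to 60.1 CPM with ethanol, with overlap (log2 fold change -0.31 ± 0.11 SE, edgeR FDR 0.4). Lbr read 10.9 to 14.0 CPM with saline and 8.62 to 8.85 CPM with ethanol (log2 fold change -0.51 ± 0.16 SE, edgeR FDR 0.365). Saline replicate 5 was the lowest saline library for Hmgcs1 and Sqle, and without it edgeR called both, 2 genes, while without any other single library it called 0. The share of all genes called in those fits is not given here, so the 2 genes cannot be set against it. Saline replicate 5 held 462 CPM of pallial excitatory neuron markers, against 1038 and 1374 CPM in the other saline libraries and 357 to 546 CPM in the ethanol libraries. Of these 9 markers 8 were lower with ethanol and 1 higher, at a median log2 fold change of -3.16, with 0 called. The oligodendrocyte markers summed to 3626 to 4932 CPM with saline and 2763 to 3663 CPM with ethanol, with overlap. The endothelial markers summed to 184.7 to 187.2 CPM with saline and 178.3 to 184.6 CPM with ethanol, barely without overlap. Of these 7 markers 4 were higher and 3 lower, with 0 called, so they had no common direction. The part of these cells was not tested.

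**Figure D5:**
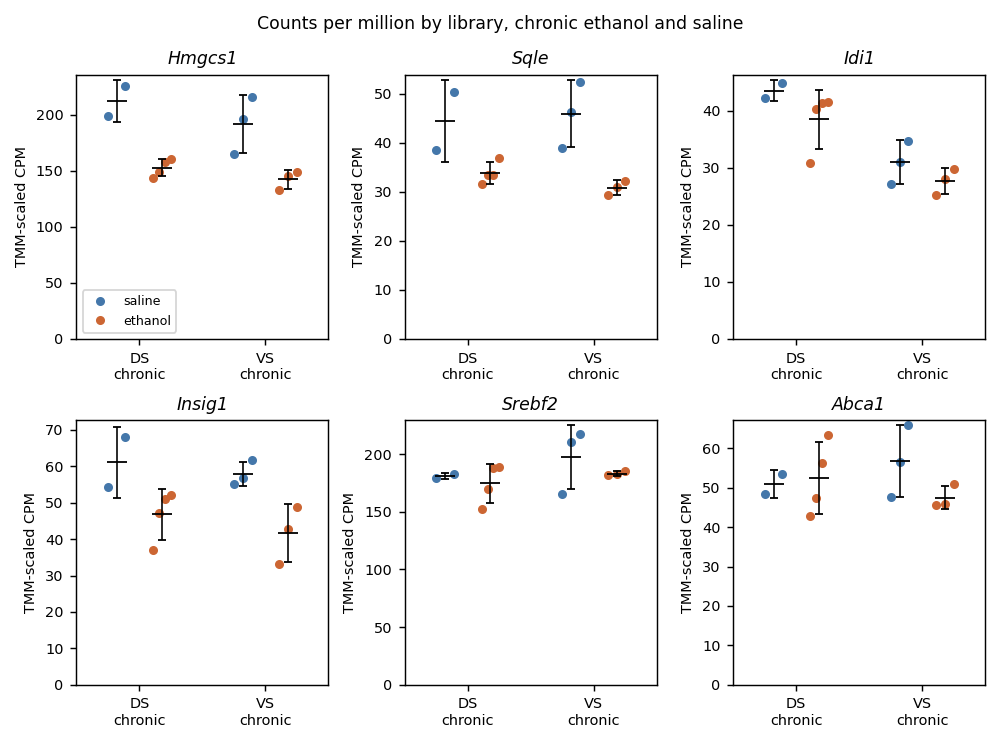
TMM-scaled CPM (vertical axes, from 0) of 6 genes in each library of the DS and VS chronic comparisons (dots, libraries; bars, mean and SD; 2 saline and 4 ethanol libraries in DS, 3 and 3 in VS). Hmgcs1, Sqle and Insig1 lie lower in every ethanol library than in every saline library of both regions, while Srebf2 and Abca1 overlap.

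In the chronic CTX, 14 of 28 genes had a positive log2 fold change, and 3 had an unadjusted p below 0.05 (Abca1 and Lss lower, Acat2 higher), where 10.4% of all 25644 genes did. Abca1 read 39.8, 31.3 and 38.0 CPM with saline and 30.9, 27.2 and 26.1 CPM with ethanol (log2 fold change -0.37 ± 0.11 SE, edgeR FDR 0.443). Its groups did not overlap, and 4 of the 28 genes lay wholly above and 3 wholly below (8.99% and 9.24% of all genes). In the dHPC none of the 28 had an unadjusted p below 0.05 (8.23% of all 25958 genes did), and 1 lay wholly above and 1 wholly below (6.8% and 7.18%). The smallest p there was that of Insig2. Insig2 read 40.5, 39.3 and 39.2 CPM with saline and 41.5, 42.2 and 47.0 CPM with ethanol (log2 fold change 0.13 ± 0.07 SE, edgeR FDR 0.65). Saline replicate 5 of the dHPC held 2800 CPM of striatal projection neuron markers, against 185 to 680.1 CPM in the other 5 libraries, and without it edgeR likewise called 0. The oligodendrocyte markers there summed to 4140 to 4677 CPM with saline and 3309 to 3721 CPM with ethanol and the dentate granule neuron markers to 374 to 532 CPM with saline and 539 to 728 CPM with ethanol, neither with overlap, and the part of these cells was not tested.

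In the chronic vHPC, Tm7sf2 and Srebf2 had an unadjusted p below 0.05, both lower, where 9.51% of all 19814 genes did. Tm7sf2 read 21.3, 20.8 and 25.6 CPM with saline and 15.8, 15.8 and 19.7 CPM with ethanol (log2 fold change -0.40 ± 0.14 SE, edgeR FDR 0.452). Srebf2 read 216 to 243 CPM with saline and 188 to 206 CPM with ethanol (log2 fold change -0.22 ± 0.09 SE, edgeR FDR 0.495). Neither overlapped between the groups, and 1 of the 28 genes lay wholly above and 3 wholly below (7.48% and 7.24% of all genes). The choroid plexus markers, all 10 higher, summed to 26.0 to 46.9 CPM with saline and 165 to 429 CPM with ethanol. Of these markers 5 were called, where edgeR called 11 of all 19814 genes higher. The endothelial markers, all 7 lower, summed to 166 to 183 CPM with saline and 141 to 146 CPM with ethanol. The pallial excitatory neuron markers summed to 3322 to 3759 CPM with saline and 2329 to 2966 CPM with ethanol. None of these sums overlapped. Of the 9 pallial excitatory neuron markers 5 were lower and 4 higher, with 0 called. The part of these cells was not tested.

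The difference between the chronic and the acute effect was tested as an interaction within each region. EdgeR called none of the 28 genes in any region (0% of all genes in each), and DESeq2 called 1, Cyp51 in the vHPC (2.02% of all genes there). DESeq2 gave no FDR for Mvk, Lbr and Ebp in the vHPC interaction, so these genes were not judged by it there. For Cyp51 the chronic effect lay 0.52 ± 0.13 SE above the acute one on the log2 scale (edgeR FDR 0.289, DESeq2 FDR 0.0284). Its chronic vHPC values were 44.2 to 51.0 CPM with saline and 45.8 to 55.6 CPM with ethanol, with overlap. In the cortex, Idi1, Lss, Nsdhl, Stard4, Msmo1, Insig1 and Hmgcs1 had a lower chronic than acute effect at an unadjusted p below 0.05 (8.19% of all genes in either direction), with Idi1 lowest at -0.46 ± 0.13 SE (edgeR FDR 0.6). In the vHPC, Cyp51, Ggps1, Nsdhl, Idi1 and Srebf1 had a higher chronic than acute effect and Tm7sf2 and Scap a lower one at that p (11.5% of all genes in either direction), from -0.55 ± 0.17 SE for Tm7sf2 to 0.59 ± 0.24 SE for Srebf1. The DS gave Acat2, higher (4.16%), the VS Soat1, lower (4.62%), and the dHPC 0 of the 28 genes (4.48%). A threshold that was missed does not show that both paradigms acted alike.

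Over the 10 comparisons, Hmgcs1 ranged from -0.47 in DS chronic to 0.23 in CTX acute on the log2 scale and was negative in 9. Insig1 ranged from -0.47 in VS chronic to 0.20 in CTX acute and was negative in 9. Sqle ranged from -0.57 in VS chronic to 0.13 in CTX acute and Idi1 from -0.53 in vHPC acute to 0.34 in CTX acute. Srebf2 ranged from -0.22 in vHPC chronic to 0.08 in dHPC acute, Srebf1 from -0.31 in VS chronic to 0.29 in vHPC chronic and Abca1 from -0.37 in CTX chronic to 0.07 in DS acute, and without leaving out further libraries neither tool called Insig1, Srebf1, Srebf2 or Abca1 in any of the 10. Comparisons within a paradigm share mice, so these values do not add up as independent evidence.

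Another 42 genes of sterol and fatty acid metabolism had calls by edgeR in DS acute alone, 4 lower and 4 higher of 41 tested, where 3.1% of all genes were lower and 2.05% higher. Among the lower ones, Acss2, which makes acetyl-CoA from acetate, read 35.4 ± 1.68 CPM with saline and 27.6 ± 2.21 CPM with ethanol (SD, n = 3 and 3, log2 fold change -0.36, edgeR FDR 0.0641). Log2 fold changes were -0.48 for Aacs, an acetoacetyl-CoA synthetase, -0.25 for Acaca, acetyl-CoA carboxylase, and -0.28 for Scd1, a desaturase (edgeR FDR 0.0644 to 0.0946).

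The higher ones were Mbtps1 (0.37) and Spring1 (0.38), of the protease step that frees SREBP, Vldlr (0.32), a lipoprotein receptor, and Lpin1 (0.35), a phosphatidate phosphatase (edgeR FDR 0.0146 to 0.0831). In CTX acute the median log2 fold change of the 42 genes was 0.05, against 0.00 over all genes. DESeq2 alone called 2 of them higher there (1.48% of all genes), Acss2, at 48.7 ± 2.56 CPM with saline and 56.4 ± 1.23 CPM with ethanol (SD, n = 3 and 3, edgeR FDR 0.133, DESeq2 FDR 0.0599), and Acsl3. In vHPC acute DESeq2 alone called 2 lower (1.23% of all genes), Me1, malic enzyme (log2 fold change -0.56, edgeR FDR 0.171, DESeq2 FDR 0.000584), and Scd1. It alone also called Erlin1 higher in DS acute (2.7% of all genes), Spring1 in dHPC acute (0.538%) and Cyp7b1 in dHPC chronic (0.428%). In VS chronic it called Erlin1 higher (0.777%) and Me1, Abca7 and Lrp8 lower (1.01%).

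Exons of 16 of the 28 genes overlap an exon of a gene on the opposite strand, among them Hmgcs1, Idi1, Fdft1, Sqle, Cyp51, Nsdhl and Stard4, and exons of 3 (Tm7sf2, Lbr and Srebf1) overlap a gene on the same strand. The kit of the CTX and dHPC libraries does not mark strand, so reads of an opposite-strand pair cannot be told apart there. Msmo1, Fdps and Insig1 have neither kind of overlap. On GRCm39, Msmo1 lies at chr8:65171173-65186826 on the minus strand, Fdps at chr3:89000895-89009195 on the minus strand, Insig1 at chr5:28276361-28282049 on the plus strand and Hmgcs1 at chr13:120151915-120169618 on the plus strand.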

How the data were processed

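The authors trimmed adapters (Cutadapt 5.0), aligned to GRCm39 (STAR 2.7.10a) and counted reads per gene (featureCounts 2.0.6). The deposited gene counts are raw. Every library was counted as reverse-stranded, also CTX and dHPC, whose kit is non-directional, and a pair on several loci or genes counts for each. The table of isoform counts was not used. Library totals were 43173748 to 71164766 counts in CTX and dHPC and 8149628 to 46564992 in vHPC, DS and VS. The total of 46564992 is that of DS acute ethanol replicate 5, and the next highest there was 20428676.

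A gene entered a test with 5 counts or more in 2 samples or more of a group. EdgeR 4.0.16 (R 4.3.3, TMM, quasi-likelihood, prior count 0.125) was the main test, adjusted by Benjamini-Hochberg over all genes tested. Each SE was derived from that test, as the size of the log2 value divided by the square root of its F statistic. The alternatives were DESeq2 1.42.0, its size factors in edgeR, no filter, a filter of 10 counts in each sample, one fit of a region's 4 groups, a replicate block, and leaving out single libraries. Differences between regions were added after seeing the data. The tests were checked on simulated counts with the same spread for all genes. At a true log2 fold change of 0.5, 32.5% of changed genes were recovered in CTX acute. In DS chronic 11% were recovered, and in the vHPC interaction 1%. At 1.0 the shares were 96%, 94% and 72.5%. Between 0% and 11.6% of the called genes were unchanged ones.

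The members, the 42 further genes and the 10 marker lists were chosen with earlier results of these data known. Values of each library are given for members called by edgeR or DESeq2 and for the smallest p of a comparison, and ranges for Hmgcs1, Sqle, Idi1, Insig1, Srebf1, Srebf2 and Abca1. Other values were picked after they were seen. Same-numbered saline and ethanol samples are different mice and were not paired. Exon overlaps come from the GENCODE annotation. Summaries used Python 3.11.15 with pandas 2.3.3.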

Additional observations from a re-analysis of the deposited data

Results flagged for a closer look

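The acute effect differed between a region and the cortex in a direct test (edgeR, FDR below 0.1) for 12 pairs of gene and region, added after seeing the data. As the log2 fold change in the region minus that in the cortex, the vHPC values were -0.86 for Idi1, -0.81 for Stard4, -0.78 for Nsdhl, -0.53 for Sqle, -0.52 for Hmgcs1 and -0.48 for Cyp51. The DS values were -0.57 for Fdps, -0.55 for Hmgcs1, -0.46 for Sqle, -0.45 for Insig1 and -0.45 for Msmo1, and the VS value was -0.52 for Hmgcs1. Of all genes, 0.272% were called lower than in the cortex in the vHPC, 2.31% in the DS and 0.329% in the VS. Most mice gave both regions, and with the mouse as a block the 5 DS genes were called, while 0 were in the vHPC and 0 in the VS.

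Among 56 sets of 4 libraries, 3 held a library far from the others by Dixon's criterion, which chance gives in about 1 in 20. Mvk in dHPC acute ethanol replicate 5 read 17.9 CPM, against 15.3 to 15.7 CPM in the other 3 (gap 0.869 of the range). In DS chronic ethanol replicate 5, Mvd read 8.18 CPM, against 10.9 to 11.2 CPM in the other 3 (gap 0.901 of the range) and Idi1 read 30.8 CPM, against 40.2 to 41.6 CPM in the other 3 (gap 0.877 of the range).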

How the results depend on the processing

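DESeq2 called 6 members in vHPC acute, 1 in DS chronic, 2 in VS chronic and 1 in the vHPC interaction, where edgeR called 0, and without the low-count filter edgeR called 1, 1, 3 and 2. One fit of all 4 groups of a region gave 0 in CTX acute, 0 in DS acute and 1 in DS chronic. With the incomplete DS library, which reads 0 for 7 members, the median log2 fold change in DS chronic was 0.0301, in place of -0.17. A replicate block, possible only in CTX acute, dHPC acute and CTX chronic because the other comparisons share fewer than 2 numbers, called 4, 0 and 0 members, and deviations of same-numbered samples correlated at -0.41 to 0.0973. For the region differences DESeq2 called 11 (vHPC), 8 (DS) and 3 (VS), and a mouse block 0 (vHPC) and 0 (VS). Leaving out 1 library gave 0 to 5 members in CTX acute, 0 to 3 in DS acute, 0 to 2 in vHPC acute, 0 to 2 in VS chronic, 0 to 1 in the vHPC interaction and 0 in each other comparison and interaction. For the region differences it gave 0 to 9 (vHPC), 3 to 6 (DS), 0 to 3 (VS) and 0 (dHPC). In DS chronic it can leave 1 saline library, assumed to vary like the others. For fits other than the main one, DESeq2 and the mouse block, the share of all genes called is not given. Member counts there cannot be set against such a share. The cause of these changes was not tested. With 2 to 4 libraries in a group, small effects can be missed.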
